A study of Rattus norvegicus with 192 samples.

Results

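Mitochondrial ribosomal protein genes were followed in hypothalamus, pituitary, thyroid and liver of rats given vehicle, vancomycin, PFOS or both compounds. The members were all rows of the 2 count tables whose symbol begins with Mrpl or Mrps followed by a digit, which gave 71 of 17483 genes, 43 named Mrpl, for the large subunit, and 28 named Mrps, for the small subunit. The rule uses the symbol alone and no measured value. A further 3 rows, mrpl9, mrpl11 and mrpl24, are spelled in lower case, fall outside the rule and were not counted.

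The animals were adult wild-type rats of the Crl:CD(SD) stock. Every group was gavaged daily for 7 days, from postnatal day 56 to 62: vehicle rats with corn oil, vancomycin rats with 8 mg/kg body weight per day of this glycopeptide antibiotic, PFOS rats with 3 mg/kg per day of the surfactant perfluorooctane sulfonate, and combination rats with both at these doses. RNA was read by 3' bulk RNA barcoding (BRB-seq), in which a well barcode of 6 bases marks each sample before pooling and reads come from the 3' ends of polyadenylated transcripts. The labels number the libraries but do not say that each number is 1 animal, so the p-values measure the spread between these libraries, which may be technical in part.

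The mitochondrial ribosome, or mitoribosome, translates the few mRNAs encoded by mitochondrial DNA, all of them for subunits of the oxidative phosphorylation complexes. Its RNAs come from the mitochondrial genome, whereas all of its proteins are encoded in the nucleus, made on cytosolic ribosomes and imported. The small subunit decodes the mRNA and the large subunit forms peptide bonds at the inner membrane. Tissues rich in mitochondria, such as brain and liver, depend on it to keep up the respiratory chain.

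Of 192 libraries, 178 held at least 100000 counts and were used: 47 of hypothalamus (12 per group, 11 for the combination), 48 of pituitary (12 per group), 46 of thyroid (12 per group, 10 for PFOS) and 37 of liver (9 vehicle, 10 vancomycin, 8 PFOS, 10 combination). Total counts ran from 106742 to 3387946. In hypothalamus they averaged 905432 in vehicle and 532574 in combination libraries, and in thyroid 797237 and 378578. Hypothalamus and pituitary lay on plate 1, thyroid and liver on plate 2. In every tissue, the libraries of a treatment sat together in a row of wells that held no other treatment. Treatment therefore cannot be told apart from plate row and well barcode in any contrast of treatments. The same holds for the PFOS effects compared between tissues. Hypothalamus and thyroid used the same well barcodes, most with 1 G or C base, and pituitary and liver used another set, most with 5, so tissue cannot be told apart from plate and barcode. A total of 19 kept libraries carried barcodes of another GC count: 4 of the combination in hypothalamus, 5 of the combination in thyroid, and 5 of vehicle in each of pituitary and liver. On average, marker genes were highest in their own tissue, with Gh1 in pituitary, Tg in thyroid, Alb in liver and the peptide genes Oxt and Pmch in hypothalamus. Thyroid libraries also held the parathyroid gene Pth at a mean of 42040 CPM (counts scaled to a common library total), from 1687 to 66990, and Alb at 527.5. Liver libraries held Tg at a mean of 1107 CPM and Pth at 763.6. The 3 parathyroid markers summed to 2.85 to 5.69% of counts in vehicle and 0.174 to 6.71% in PFOS libraries of thyroid. Their part in the results was not tested. Hypothalamus libraries held the pituitary genes Gh1 at a mean of 4467 CPM and Cga at 574. The 7 pituitary hormone markers, all with a count, summed to 0.488 to 0.982% of counts in vehicle and 0.492 to 0.728% in combination libraries of hypothalamus, and their part in the results was not tested. The PFOS library with replicate number 31 of hypothalamus was low in the hypothalamic peptides, with Avp at 0.972 CPM, the lowest among the 47. The combination library with replicate number 48 of pituitary had the lowest Gh1 of its tissue and the most counts, 2804779. Without those 2 libraries the number of members called was the same in each contrast of these 2 tissues.

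Promoter sequence is shown for 3 of the members that passed a test in a treatment contrast, because they differ in letters known from genes of mitochondrial proteins. The letters are the 250 bases before the RefSeq start site in the rat assembly GRCr8, read 5′ to 3′ on the gene's strand. The windows are chr14:13663522-13663771 on the minus strand for Mrpl1, chr1:169575700-169575949 on the minus strand for Mrpl17 and chr4:159677738-159677987 on the plus strand for Mrpl51. Capitals mark runs that match the NRF1-type motif GCGCANGCG, where N is any base, on either strand.
Mrpl1: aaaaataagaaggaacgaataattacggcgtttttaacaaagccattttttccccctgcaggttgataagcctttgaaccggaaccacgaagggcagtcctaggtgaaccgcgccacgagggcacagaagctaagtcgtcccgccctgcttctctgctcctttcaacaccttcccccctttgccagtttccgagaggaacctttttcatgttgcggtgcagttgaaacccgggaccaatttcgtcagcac
Mrpl17: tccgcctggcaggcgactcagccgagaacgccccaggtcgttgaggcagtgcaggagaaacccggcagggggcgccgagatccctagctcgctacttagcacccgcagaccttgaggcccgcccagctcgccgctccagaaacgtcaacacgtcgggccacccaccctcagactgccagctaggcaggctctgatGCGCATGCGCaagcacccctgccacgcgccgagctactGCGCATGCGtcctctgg
Mrpl51: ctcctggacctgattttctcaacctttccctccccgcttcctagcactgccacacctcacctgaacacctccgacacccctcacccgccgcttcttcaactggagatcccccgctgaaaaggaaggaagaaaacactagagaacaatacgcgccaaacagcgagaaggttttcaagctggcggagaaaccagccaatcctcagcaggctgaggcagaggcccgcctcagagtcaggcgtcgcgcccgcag
The Mrpl17 window holds 3 matches, 2 of which overlap on opposite strands 55 bases before the start site, and its GC content is 67.6%. The Mrpl1 window, at 50.8% GC, and the Mrpl51 window, at 58.4%, hold none. NRF1 is a transcription factor known for binding promoters of nuclear genes for mitochondrial proteins. ETS-type factors such as GABP, and YY1, are known for the same.

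Windows of 300 bases, the same 250 with 50 more after the start, were found for 57 of the 71 members, 1 of them (Mrps36) through a synonym. The NRF1-type motif was in the windows of 12 of 57 members (21.1%) and of 6.46% of 27457 genes. The ETS-type motif CCGGAAGT was in 8 members (14%) and 4.2% of genes. The YY1-type motif AAGATGGC was in 14 members (24.6%) and 3.62% of genes. At least 1 of these 3 motifs was in 29 members (50.9%) and 12.9% of genes. 2 kinds occurred together in Mrpl32, Mrpl48, Mrps18b, Mrps26 and Mrps27. Both strands were searched, and a match describes the letters only.

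The 71 genes together took 0.396 to 1.09% of a library's counts. Their summed share in vehicle libraries was highest in hypothalamus, at 0.935 ± 0.035% (mean ± SD, n = 12), followed by thyroid at 0.825 ± 0.045% (n = 12), pituitary at 0.643 ± 0.033% (n = 12) and liver at 0.446 ± 0.018% (n = 9). Hypothalamus (0.868 to 0.992%) and thyroid (0.743 to 0.916%) overlapped, whereas thyroid did not overlap pituitary (0.578 to 0.690%) and pituitary did not overlap liver (0.409 to 0.466%). These are shares of each library's total, so a tissue with a few very abundant transcripts, such as Gh1 in pituitary, leaves less for all other genes. In bulk samples, fewer cells of a type and less RNA per cell cannot be told apart.

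Within a tissue the share moved little with treatment. In hypothalamus it was 0.943 ± 0.026% with vancomycin (n = 12), 0.958 ± 0.036% with PFOS (n = 12) and 0.988 ± 0.037% with the combination (n = 11). On totals scaled by TMM, edgeR's trimmed mean of M values, the combination mean was 0.966 ± 0.047% and the vehicle mean 0.943 ± 0.040%. In thyroid the share was 0.825% in vehicle and 0.838 ± 0.050, 0.860 ± 0.017 and 0.875 ± 0.034% with vancomycin (n = 12), PFOS (n = 10) and the combination (n = 12), with overlapping ranges. In pituitary the 3 treated means lay between 0.631 and 0.677%, and in liver between 0.439 and 0.470%. Genes named Mrpl held 0.593 ± 0.024% and genes named Mrps 0.342 ± 0.013% of counts in hypothalamus vehicle libraries.

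**Figure D1:**
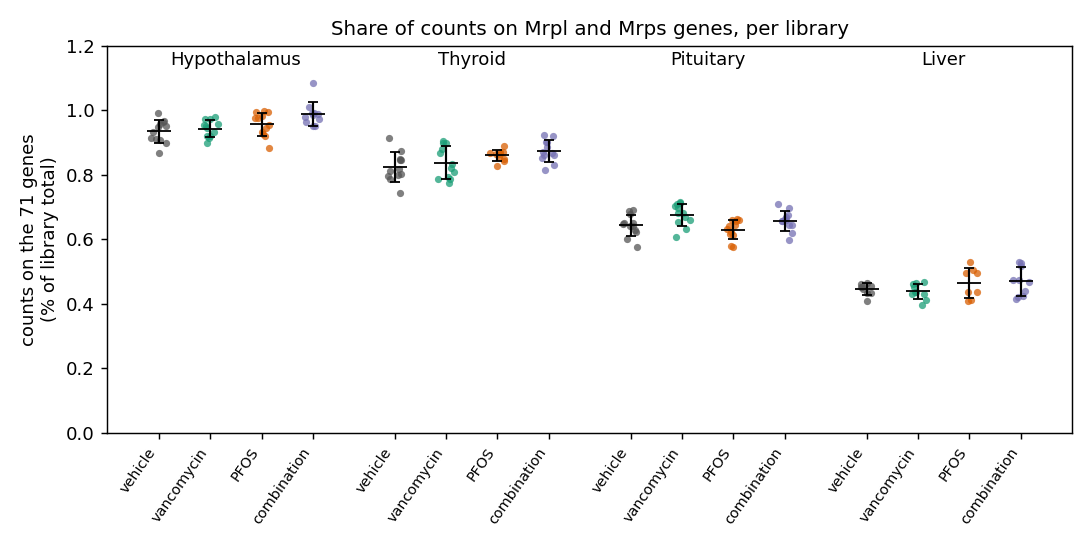
Share of each library's counts on the 71 genes, in percent of the library total, for 178 libraries by tissue and treatment; points are libraries, and bars give the mean and SD. Vehicle means fall from 0.935% in hypothalamus to 0.446% in liver, and the 4 treatments overlap within every tissue.

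Few single members differed between treatment groups, which also differ in plate row. Of the members tested, 69 in hypothalamus, 64 in pituitary, 66 in thyroid and 63 in liver, a difference with an adjusted p under 0.05 (edgeR quasi-likelihood test, adjusted over all genes tested) was found for 6 genes in hypothalamus, 1 in pituitary, 1 in thyroid and none in liver, and these are what "called" means here. Log2 fold changes are given ± SE. The median log2 fold change of the members lay between -0.02 and 0.09 in all 20 contrasts. The contrasts of a tissue share groups, so they are not independent.

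In hypothalamus, PFOS against vehicle called 0 members, while 4.37% of all 6596 genes tested were called. The members' median log2 fold change was 0.00, as was that of all genes. At an unadjusted p under 0.05 there were 7 of 69 members, and DESeq2 called 1, Mrpl51. The 95% interval of the fold change lay within 1.5-fold in either direction for 64 of the 69. Vancomycin against vehicle called 0 members and 0.0% of genes, with 2 members at an unadjusted p under 0.05 and 0 by DESeq2. The combination against PFOS also called 0 members and 0.0% of genes, with 3 members at an unadjusted p under 0.05 and 0 by DESeq2.

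The combination against vehicle called 3 members of hypothalamus, all higher and all of the large subunit, beside 8.14% of all genes. They were Mrpl1, a protein of the mobile stalk where spent tRNA leaves, Mrpl14, which faces the small subunit, and Mrpl17, a conserved protein of the large subunit. The members' median was -0.01 and that of all genes 0.00.

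Mrpl1 ranged in CPM from 36.1 to 50.8 (median 43.03) in vehicle, 32.9 to 59.7 (median 40.3) in vancomycin, 33.7 to 65.1 (median 42.9) in PFOS and 38.7 to 78.97 (median 58.9) in combination libraries. The combination libraries reach highest but overlap every other group. The log2 fold change against vehicle was 0.37 ± 0.12 (SE), with an adjusted p of 0.0405. These values rest on 13 to 63 counts of the gene per vehicle or combination library, and reads of Mrpl1, Mrpl17 and Mrpl54 may be shared with annotated pseudogene copies.

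Mrpl14 ran from 119 to 182 (median 140.4) CPM in vehicle, 116 to 173 (median 139.6) in vancomycin, 134 to 178 (median 159.7) in PFOS and 151 to 196 (median 166) in combination libraries. The PFOS median lies between those of vehicle and combination, and all groups overlap. The log2 fold change of the combination against vehicle was 0.22 ± 0.07, adjusted p 0.0343.

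Mrpl17 ran from 330.4 to 434 (median 369) CPM in vehicle, 316 to 436 (median 358) in vancomycin, 341 to 459.8 (median 412) in PFOS and 295 to 574 (median 442) in combination libraries. The lowest combination library lies below every vehicle library, and the other 10 lie above 11 of the 12 vehicle libraries. The log2 fold change was 0.24 ± 0.06, adjusted p 0.0125.

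None of these 3 calls stood with a depth covariate or without libraries of unusual barcode, where 7 combination libraries were left. With log2 total counts as a covariate none of the 3 was called (adjusted p 0.110 for Mrpl1, 0.303 for Mrpl14 and 0.0924 for Mrpl17), with fitted changes of 0.44, 0.17 and 0.24. Leaving out the 4 combination libraries with 3 G or C bases in the barcode, the changes were 0.29, 0.16 and 0.20 and none was called. The part of depth and of barcode in the result was not tested further.

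**Figure D2:**
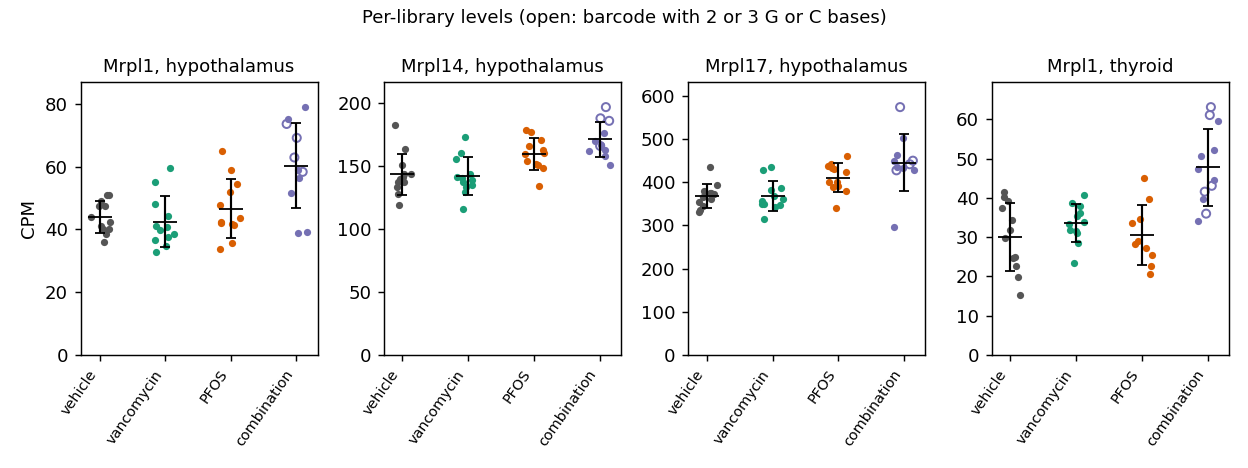
CPM of Mrpl1, Mrpl14 and Mrpl17 in hypothalamus and of Mrpl1 in thyroid, 1 point per library with mean and SD; open circles are libraries whose barcode has 2 or 3 G or C bases in place of 1. Combination libraries sit highest on average in each panel (60.3 CPM for Mrpl1 in hypothalamus, 47.8 in thyroid), with overlap between groups.

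The combination against vancomycin called 6 members of hypothalamus, 4 higher and 2 lower, beside 7.82% of all genes. The 3 genes above were called again, Mrpl1 at 0.42 ± 0.12, Mrpl14 at 0.23 ± 0.07 and Mrpl17 at 0.24 ± 0.07, a contrast that shares the combination libraries with the previous one. Mrpl51, a large-subunit protein with no bacterial counterpart, was higher at 0.48 ± 0.15 (adjusted p 0.0387). Its libraries ran from 252 to 502 (median 294) CPM with vancomycin and 298 to 683 (median 517) with the combination. Both groups overlap over much of their range.

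Mrpl54, also of the large subunit and specific to mitochondria, was lower with the combination than with vancomycin at -0.44 ± 0.12 (adjusted p 0.0133). Its CPM ran from 99.5 to 149.9 (median 127) with vancomycin and 34.7 to 139 (median 91.9) with the combination. The lowest combination library held 6 counts of the gene. Mrps35, a small-subunit protein specific to mitochondria, was lower at -0.25 ± 0.08 (adjusted p 0.0482), from 176 to 234 (median 213) CPM with vancomycin and 154 to 217 (median 185) with the combination. With log2 total counts as a covariate, Mrpl1 (0.46) and Mrpl17 (0.24) were the members called. With those 4 libraries left out, it was Mrpl51 alone (0.62), and DESeq2 called all but Mrps35. Blood cell genes move with the amount of blood in a sample. In hypothalamus they summed to 0.513% of counts in vancomycin (0.369 to 0.5965%) and 0.421% in combination libraries (0.297 to 0.626%), with overlapping ranges. In vehicle libraries they summed to 0.595% (0.303 to 0.837%), and 6 of 6 measured genes had a count in each group. Their part in these differences was not tested.

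**Figure D3:**
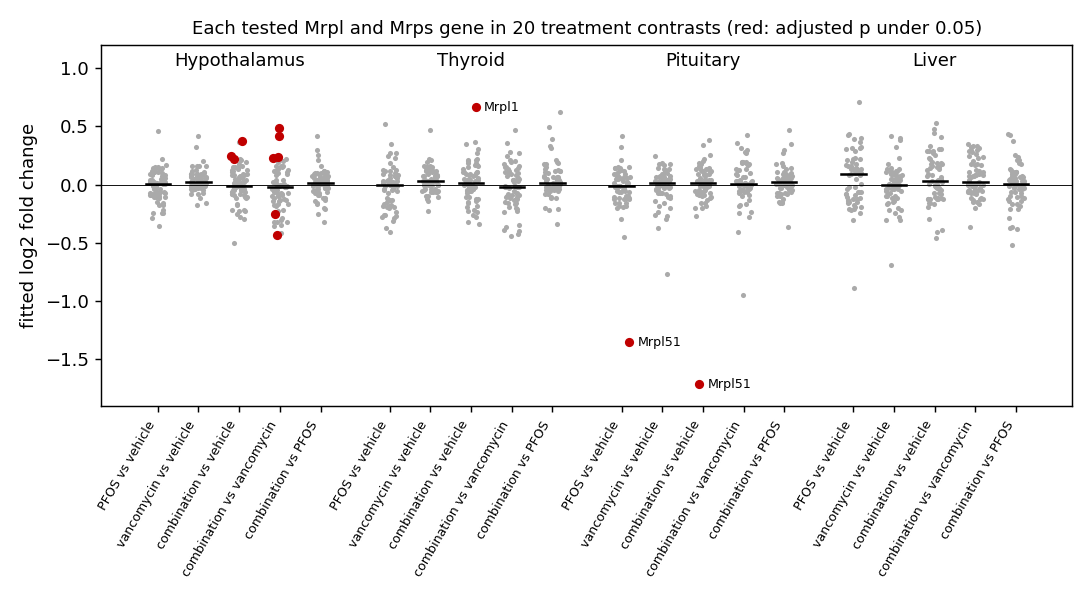
Fitted log2 fold change of every tested member (1 point per gene) in 5 contrasts in each of 4 tissues; black lines are medians and red points have an adjusted p under 0.05. The medians lie within -0.02 to 0.09, and Mrpl51 in pituitary, at -1.35 and -1.71, is the member farthest from 0.

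Cytosolic ribosomal protein genes were set beside the mitochondrial ones, since both sets encode ribosomal proteins made in the cytosol. In hypothalamus, PFOS against vehicle called 50 of 76 of them lower and 0 higher (median -0.30), and the combination against vehicle called 69 lower and 0 higher (median -0.42). In thyroid the combination called 43 of 76 lower against vehicle (median -0.36) and 52 against vancomycin (median -0.39). The mitochondrial set in those contrasts had 0, 3, 1 and 0 calls and medians of 0.00, -0.01, 0.02 and -0.02. Nuclear genes of oxidative phosphorylation had 1 higher and 1 lower call of 78 with PFOS in hypothalamus and 6 higher and 6 lower with the combination, with medians of 0.00 in both. The depth covariate, log2 total counts, left calls among the cytosolic genes at 1 and 8 in hypothalamus (medians -0.19 and -0.22) and 0 in both thyroid contrasts (medians -0.07 and -0.22). Over the 5 contrasts of a tissue, that fit called 0.534% of all genes' tests in hypothalamus and 0.0% in thyroid. The 0 in thyroid is therefore not particular to this list. Without libraries of unusual barcode, the cytosolic calls were 51, 66, 6 and 27. The first of these contrasts, PFOS in hypothalamus, lost none of its own libraries there. No test of the difference between the lists was made.

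In pituitary, PFOS against vehicle called 1 member, Mrpl51, beside 1.19% of 4380 genes, and the combination against vehicle called Mrpl51 again, beside 1.37%. Vancomycin against vehicle called 0 members and 0.0228% of genes. The combination against vancomycin and against PFOS called 0 members and 0.0% of genes each. In these 3 contrasts 1, 4 and 2 members had an unadjusted p under 0.05 and DESeq2 called 0.

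Mrpl51 in pituitary ran from 35.8 to 411 (median 157) CPM in vehicle, 76.8 to 165 (median 117) in vancomycin, 46.4 to 129 (median 83.8) in PFOS and 40.8 to 80.1 (median 63.9) in combination libraries. The vehicle group spreads far more than the treated groups, and its range encloses all of theirs. The log2 fold change was -1.35 ± 0.26 with PFOS (adjusted p 0.00224) and -1.71 ± 0.26 with the combination (adjusted p 9.77e-05). With vancomycin it was -0.76 ± 0.24 and not called.

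The upper part of the vehicle group was the libraries of unusual barcode. The 4 vehicle libraries whose barcode has 3 G or C bases held 269 to 411 CPM of Mrpl51, the 1 with 4 such bases held 241, and the 7 with 5 such bases held 35.8 to 160.2. All treated pituitary libraries carry 5. Of the 64 members tested, Mrpl51 was the only one whose vehicle libraries of fewer than 5 and of 5 such bases did not overlap (1.56% of members, 0.913% of all genes tested). Without the 5 unusual libraries the changes were -0.41 with PFOS and -0.78 with the combination, and neither was called (adjusted p 1 and 0.566). In the same fit the combination against vancomycin, where no library is unusual, called Mrpl51 at -0.95 ± 0.18 (adjusted p 0.0126), against -0.95 ± 0.26 and an adjusted p of 0.711 with all kept libraries. Among libraries of at least 500000 counts, 3 of which are vehicle, the changes were -0.75 and -1.07 and not called. With log2 total counts as a covariate both calls stood, at -1.18 and -1.34.

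**Figure D4:**
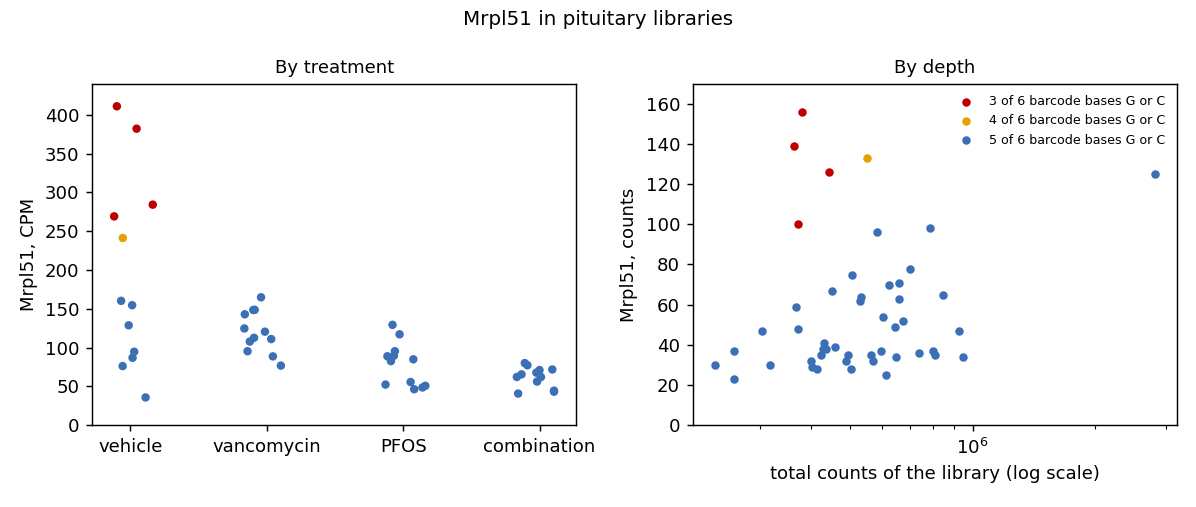
Mrpl51 in 48 pituitary libraries, left as CPM by treatment and right as counts against the library's total counts on a log axis; colour gives the number of G or C bases in the 6-base barcode. The 5 libraries with 3 or 4 such bases hold 241 to 411 CPM, above the 160.2 CPM maximum of the vehicle libraries with 5.

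In the other tissues the barcode classes overlapped for Mrpl51. In hypothalamus combination libraries it ran from 335 to 683 CPM (median 544) with 1 G or C base and from 298 to 557 (median 387) with 3. In thyroid combination libraries it ran from 340.2 to 953 CPM (median 573) with 1 and from 186 to 449.8 (median 328) with 3. In liver vehicle libraries it ran from 20.03 to 33.9 CPM (median 29.3) with 5 and from 12.2 to 102 (median 33.5) with 3. In each of these 3 tissues the class with more G or C bases had the lower median. Mrpl51 also fell relative to other genes as libraries grew deeper, with a slope on log2 total counts of -0.53 ± 0.14 in pituitary and -0.40 ± 0.10 in hypothalamus (log2 CPM per doubling). The fitted change with PFOS against vehicle was 0.46 ± 0.14 in hypothalamus, 0.52 ± 0.19 in thyroid and -0.89 ± 0.32 in liver, none called (adjusted p 0.0553, 0.168 and 0.245). The PFOS effect in hypothalamus minus that in pituitary was 1.80 ± 0.35 for this gene, the 1 member called there beside 1.74% of genes. Without the libraries of unusual barcode it was 0.85 and not called (adjusted p 0.398). The PFOS effect in hypothalamus minus that in thyroid called 0 members and 0.0% of genes, with 3 members at an unadjusted p under 0.05. Minus that in liver it called 0 members and 1.44% of genes, with 6 at an unadjusted p under 0.05, while DESeq2 called Mrpl51 (1.36).

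In thyroid 1 member was called. Mrpl1 was higher with the combination than with vehicle at 0.66 ± 0.14 (adjusted p 0.0116), beside 2.79% of 5091 genes. Its libraries ran from 15.4 to 41.5 (median 30.8) CPM in vehicle, 23.4 to 40.6 (median 33.6) in vancomycin, 20.6 to 45.02 (median 28.7) in PFOS and 34.03 to 63.1 (median 45.96) in the combination. The combination libraries lie mostly above the other groups, with overlap, on 9 to 39 counts per vehicle or combination library. With log2 total counts as a covariate the change was 0.52 and not called (adjusted p 0.762). Leaving out its 5 combination libraries with 2 or 3 G or C bases in the barcode, it was 0.63 (adjusted p 0.0503). DESeq2 gave it no adjusted p, but called Mrps33 (0.21), Mrps7 (0.26) and Mrps23 (-0.25) there. Depth fell with treatment in this tissue, as given above, and its part was not tested further.

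The other thyroid contrasts called 0 members. All genes were called at 0.0589% for PFOS against vehicle, 0.0% for vancomycin against vehicle, 3.24% for the combination against vancomycin and 0.0% for the combination against PFOS. Members at an unadjusted p under 0.05 numbered 10, 0, 12 and 3 of 66. DESeq2 called 1 member with PFOS, Mrps33 (0.27), 1 in the combination against vancomycin, Mrps23 (-0.25), and 0 in the others.

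In liver, 0 of 63 members were called in any contrast. All genes were called at 0.831% for PFOS, 0.0% for vancomycin and 0.769% for the combination against vehicle, at 0.923% for the combination against vancomycin and 0.0% for the combination against PFOS. The members' median with PFOS was 0.09, against -0.02 over all 3250 genes, with 36 of 63 members above 0. Precision was lower here. The interval lay within 1.5-fold for 32 of 63 members with PFOS, 40 with the combination and 47 with vancomycin, and DESeq2 called 0 in all 5 contrasts.

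Taking the 5 contrasts of a tissue together, members at an unadjusted p under 0.05 were 34 of 345 tests in hypothalamus (15.4% of all genes' tests), 13 of 320 in pituitary (5.63%), 35 of 330 in thyroid (13.2%) and 13 of 315 in liver (7.07%). DESeq2 called 9 of 349 member tests in hypothalamus (2.95% of all genes' tests), 2 of 351 in pituitary (0.223%), 5 of 269 in thyroid (1.76%) and 0 of 340 in liver (0.277%). With log2 total counts as a covariate, edgeR called 2 member tests in hypothalamus (0.534% of all genes' tests), 2 in pituitary (0.269%), 0 in thyroid (0.0%) and 0 in liver (0.492%). In each tissue the members' share lay near or under that of all genes, except for DESeq2 and the covariate fit in pituitary, where both member calls are Mrpl51.

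Several members had a slope on depth, at shares near or under those of all genes. The slope on log2 total counts was called for 13 members in hypothalamus, 10 up and 3 down (19.4% of all genes), for 26 in pituitary, 18 up and 8 down (45.6%), for 10 in thyroid, 3 up and 7 down (16%), and for 1 in liver (6.22%). Mrpl38, of the large subunit, had the steepest called rise per doubling of depth in 3 tissues, at 0.49 ± 0.10 in hypothalamus, 0.80 ± 0.14 in pituitary and 0.57 ± 0.17 in thyroid. Mrps18c fell in the same 3, at -0.25 ± 0.06, -0.25 ± 0.05 and -0.30 ± 0.08. Mrpl20 rose in the same 3, at 0.17 ± 0.05, 0.25 ± 0.06 and 0.18 ± 0.06.

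Genes that work with the mitoribosome had few calls, but few could be tested. All genes were called at 4.37% with PFOS and 8.14% with the combination against vehicle in hypothalamus. The share was 2.79% with the combination in thyroid and at most 1.37% in the other contrasts against vehicle. With so few genes tested, the calls cannot be set apart from those shares. Counted over the contrasts of PFOS, vancomycin and the combination against vehicle in all tissues, 0 calls were made among 5 other mitoribosome proteins, 12 translation factors, 18 genes of mitochondrial transcription and RNA stability and 10 upstream regulators in the files, of which at most 5, 8, 13 and 1 could be tested. Among 23 genes of mitoribosome assembly and rRNA modification, Ddx1 was called higher in hypothalamus with PFOS (0.24 ± 0.07) and with the combination (0.26 ± 0.07). Ddx1, an RNA helicase with known roles outside mitochondria as well, ran from 233 to 422 (median 298) CPM in vehicle and 326 to 419 (median 352) in PFOS libraries. Among 17 mitochondrial aminoacyl-tRNA synthetases, Tars2, which charges threonine tRNA, was called higher in thyroid with the combination (0.64 ± 0.18), at 11.5 to 26.7 (median 20.3) CPM in vehicle and 20.4 to 44.5 (median 32.04) in combination libraries. Dhx30, a helicase of mitoribosome assembly, was called higher in thyroid for the combination against vancomycin (0.58 ± 0.16), beside 3.24% of all genes. The same contrast in hypothalamus called Ddx1 higher again (0.26 ± 0.07), beside 7.82%. None of these calls stood with log2 total counts as a covariate (adjusted p 0.125, 0.170 and 0.0787 for Ddx1, 0.875 for Tars2 and 0.517 for Dhx30). Over the 5 contrasts, that fit called 0.534% of all genes' tests in hypothalamus and 0.0% in thyroid. The lost calls are therefore not particular to these genes. Without libraries of unusual barcode, the call of Ddx1 with PFOS alone stood, at 0.24. In hypothalamus only combination libraries were left out there, so the PFOS and vehicle libraries were the same. That refit cannot test the barcode for this call. Transcripts of mitochondrial DNA were not analysed here.

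Between tissues, 34 to 49 of 68 members were called in each of 6 pairs, as were 4254 to 4994 of all 6560 genes tested. Among the 65 members with a mean of at least 10 CPM in every tissue of vehicle rats, the ratio of the highest to the lowest tissue ran from 1.25 to 11.2, with a median of 2.47, and was under 2-fold for 22. On this scale of counts per total, 41 were highest in hypothalamus, 18 in thyroid, 5 in pituitary and 1 in liver, and 47 were lowest in liver and 15 in pituitary.

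The most even members were Mrps16, Mrpl22, Mrpl14 and Mrpl32. Mrps16, of the small subunit, ran at 163 ± 20.98 CPM in hypothalamus, 177 ± 26.9 in pituitary, 204 ± 33.7 in thyroid (each SD, n = 12) and 167 ± 26.9 in liver (n = 9). All 4 ranges overlap. By counts, which are not levels per length, Mrpl17, Mrpl51 and Mrpl20 took the most member counts in hypothalamus, Mrpl17, Mrps33 and Mrps14 in pituitary, Mrpl17, Mrpl51 and Mrpl52 in thyroid, and Mrpl52, Mrps16 and Mrps14 in liver. The most uneven members were Mrpl51, Mrps25, Mrpl48 and Mrpl13. Mrpl51 ran at 422 ± 102 CPM in thyroid, 364 ± 93.1 in hypothalamus, 194 ± 122.7 in pituitary and 37.5 ± 27.04 in liver. Thyroid and hypothalamus overlap, and the pituitary range overlaps that of every other tissue. The pituitary mean includes the 5 libraries of unusual barcode, and the 7 with 5 G or C bases held 35.8 to 160.2 CPM. In liver, 1 library held 102 CPM. Thyroid and hypothalamus share 1 barcode set, pituitary and liver the other, and the part of the barcode was not tested. Mrps25, also of the small subunit, ran at 257 ± 24.7 CPM in hypothalamus and 129.8 ± 13.3 in thyroid, and at 53.6 ± 26.7 in liver and 36.6 ± 13.2 in pituitary. Mrpl48 fell in order from 224 ± 21.4 in hypothalamus through 122 ± 21.8 in thyroid and 88.9 ± 18.9 in pituitary to 38.3 ± 5.65 in liver, where only thyroid and pituitary overlap. Mrpl13 ran at 211 ± 26.7, 97.9 ± 17.2, 89.2 ± 16.8 and 45.2 ± 9.74 CPM in the same order.

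**Figure D5:**
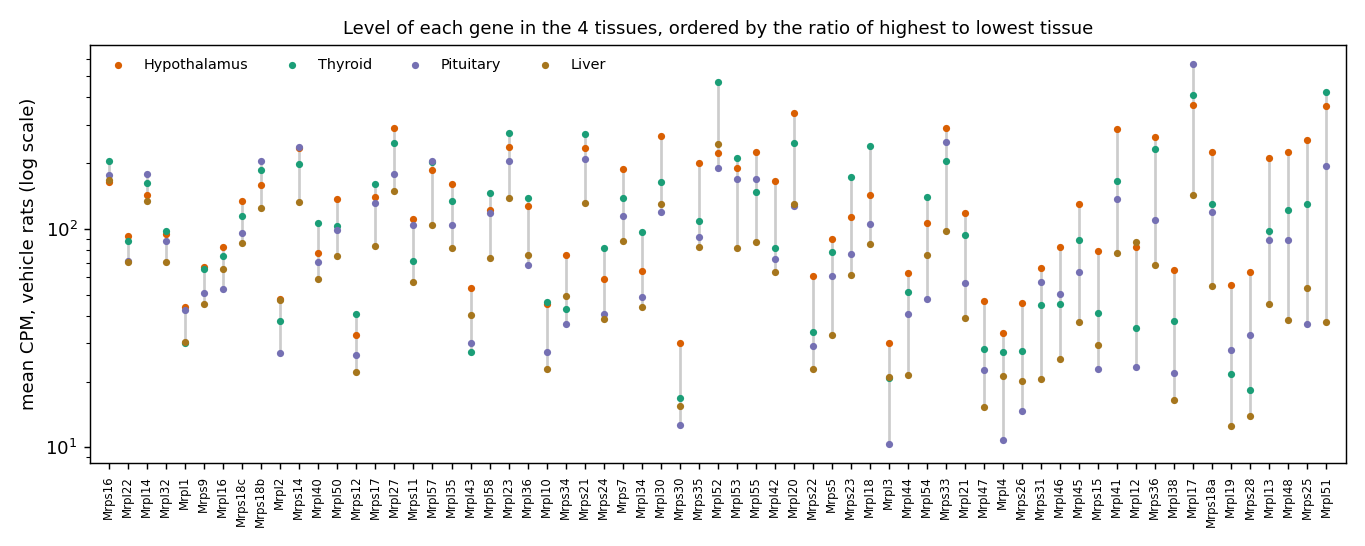
Mean CPM in vehicle rats of the 65 members with at least 10 CPM in every tissue, on a log axis, with 1 colour per tissue and members ordered by the ratio of highest to lowest tissue. The ratio runs from 1.25 for Mrps16 at the left to 11.2 for Mrpl51 at the right, and liver is lowest for 47 members.

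The balance of calls turned with the scaling in the 3 pairs with liver. For hypothalamus against liver, 11 members were called higher and 36 lower of 68 with TMM (42.6% and 32.9% of 6560 genes), but 61 higher and 0 lower on totals (74.6% and 15.2%). For pituitary against liver the calls were 7 higher and 37 lower with TMM (39.7% and 30.9%), but 37 higher and 9 lower on totals (61.5% and 18.4%). For thyroid against liver they were 6 higher and 34 lower with TMM (38.2% and 26.6%), but 54 higher and 1 lower on totals (73.4% and 12.5%). With TMM the members' medians in these 3 pairs were -0.37, -0.47 and -0.33, against 0.22, 0.22 and 0.28 for all genes.

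In the other 3 pairs it kept its direction. Hypothalamus against pituitary called 27 members higher and 18 lower with TMM (37.3% and 30.9%), and 51 higher and 3 lower on totals (59.6% and 14.8%). Hypothalamus against thyroid called 27 higher and 22 lower with TMM (38.2% and 37.9%), and 39 higher and 13 lower on totals (47.9% and 29.9%). Pituitary against thyroid called 15 higher and 19 lower with TMM (32.9% and 35.4%), and 10 higher and 39 lower on totals (23.6% and 47.5%).

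Some members crossed these patterns. Mrpl12, the protein of the flexible stalk that recruits translation factors, had its highest mean in liver, at 87.1 ± 95.9 CPM, but 2 vehicle libraries there, with 163991 and 106742 total counts, held 238 and 272 CPM. The other 7 held 28.3 to 55.7 CPM (mean 39.3), below the hypothalamus mean of 82.4 ± 14.6, and pituitary held 23.4 ± 7.47. The 2 high liver libraries have 3 G or C bases in the barcode, as do those that held 28.3 and 39.1 CPM. The part of depth and of barcode was not tested. Mrpl52, of the large subunit, was highest in thyroid, at 398 to 544 CPM, with no overlap with hypothalamus (189 to 248), pituitary (118 to 266) or liver (195 to 309). Mrpl17 was lower in hypothalamus than in pituitary, at 368 ± 27.8 CPM in hypothalamus and 571 ± 50.4 in pituitary, with a TMM change of -1.21 ± 0.09. Mrpl49 and Mrpl15, also of the large subunit, had higher means in the 2 tissues of plate 1. Mrpl49 held 25.03 to 46.9 CPM in hypothalamus and 13.5 to 32.6 in pituitary on plate 1, and 0 to 4.80 in thyroid and 0 to 10.6 in liver on plate 2. With TMM it was called higher in hypothalamus than in thyroid at 3.21 ± 0.26 and in pituitary than in liver at 2.92 ± 0.46. Mrpl15 held means of 48.2 ± 8.03, 29.1 ± 8.73, 7.34 ± 2.45 and 6.01 ± 4.21 CPM in hypothalamus, pituitary, thyroid and liver.

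Of 68 members, Mrpl49 was the 1 whose vehicle libraries of plate 1 and plate 2 did not overlap in CPM (1.47% of members, 7.1% of genes). Between the barcode sets, 4 members did not overlap, Mrpl20, Mrpl36, Mrps25 and Mrps36 (5.88% of members, 3.87% of genes), all higher in hypothalamus and thyroid. Of all genes without overlap between these sets, 252 were higher in hypothalamus and thyroid and 2 were lower. Mrps36, now also known as a subunit of the oxoglutarate dehydrogenase complex, held 214 to 320.1 CPM in hypothalamus and thyroid and 18.7 to 146.9 in pituitary and liver. Mrpl20, of the large subunit, held 201 to 384 and 84.3 to 181 CPM in the same groups.

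Of the 3 paralogs of bacterial S18, Mrps18a and Mrps18c had the same order of tissue means and Mrps18b another. Mrps18a, a part of the large subunit despite its name, ran at 226 ± 27.3 CPM in hypothalamus, 129.8 ± 13.1 in thyroid, 120.1 ± 20.03 in pituitary and 55.1 ± 12.7 in liver. Mrps18b was highest in pituitary at 204 ± 23.98 and ran at 186 ± 36.3 in thyroid, 159 ± 27.2 in hypothalamus and 125 ± 29.2 in liver. With TMM, Mrps18a was higher in hypothalamus than in pituitary (0.31 ± 0.10) and Mrps18b lower (-0.94 ± 0.11), both called and in the direction of their mean CPM. Mrps18c ran at 135 ± 19.5 CPM in hypothalamus and 85.9 ± 24.4 in liver, with thyroid and pituitary between. None of the 3 was called in a treatment contrast.

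A set list held genes whose human counterparts are mutated in mitochondrial translation disorders. Members on it had no treatment call with edgeR where they were tested, beside 0.0 to 8.14% of all genes per contrast. The filter on low counts left out 2, 7, 5 and 8 of the 71 members in hypothalamus, pituitary, thyroid and liver. A listed member without a call may therefore be untested in a tissue. DESeq2 called Mrps7 alone among the listed members, in thyroid as given above. Members outside that list, such as Mrps23, were not sorted by disorder. Mrpl3 held means of 29.9 ± 9.22 CPM in hypothalamus and 10.4 ± 6.17 in pituitary. Mrpl44, which carries a ribonuclease fold, held 62.7 ± 6.38 and 40.9 ± 11.7. Mrps22 held 61.1 ± 7.43 and 29.1 ± 9.74, and Mrps7 188 ± 11.5 and 114 ± 17.8. Mrps10, Mrps2 and Mrps27 could hardly be measured, at 5.71 ± 6.16, 10.47 ± 4.75 and 14.2 ± 4.36 CPM in hypothalamus and 0.314 ± 0.650, 3.28 ± 2.22 and 2.68 ± 2.85 in liver, near the limit of these depths. Every member had a count in at least 1 library.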

How the data were processed

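Counts per gene and library were used as deposited, whole numbers for 17483 symbols. The submitters' processing notes name BWA 0.7.4.4 and the build rn6. How reads were counted, and whether strand was used, is not given in the sources used here, so reads of Mrpl14 and overlapping genes, and of members with pseudogene copies, such as Mrpl1, Mrpl17 and Mrpl54, are uncertain. Libraries under 100000 counts (14 of 192) were left out. Each tissue was fitted in R 4.3.3 with edgeR 4.0.16 (filterByExpr at a minimum count of 10, TMM, robust quasi-likelihood F test), with 4 treatment groups in 1 model. The vehicle libraries of all tissues were fitted together for tissue pairs, and 2 tissues at a time for differences of PFOS effects. Adjusted p-values are Benjamini-Hochberg over all genes tested, with a threshold of 0.05. Standard errors are the log2 fold change over the square root of F, and intervals are 95%. DESeq2 1.42.0 was an alternative. The fits were tested on simulated data. CPM were computed from each library's total.

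The rule for members reads symbols alone, but the gene family and the lists were chosen with earlier results of these data known. Named members were up to 4 called in each direction per contrast, the 3 with most counts per tissue, the 4 most and least even between tissues, and a set list of disease genes and the S18 paralogs; not all are printed. Mrpl38, Mrpl36 and the plate and barcode comparisons were added after values were seen, as were the barcode GC covariate, the fits without the 2 libraries that stand apart, the barcode fits between tissues, and the list counts under the depth covariate and without unusual barcodes. Same-numbered libraries deviated together, with correlations over 0.1 in 12 of 12 hypothalamus and thyroid pairs and 9 of 9 pituitary and liver pairs, which also share barcodes, but in 7 of 12, 3 of 9, 8 of 12 and 4 of 9 of the other pairs. Promoter sequences are from RefSeq, GRCr8, and no coordinates were moved between builds.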

Additional observations from a re-analysis of the deposited data

Results flagged for a closer look

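The PFOS effect on Mrpl51 differed between hypothalamus and pituitary by 1.80 ± 0.35 on the log2 scale (edgeR quasi-likelihood test of the difference, adjusted p 0.00131), with the gene higher with PFOS in hypothalamus and lower in pituitary. Without libraries of unusual barcode GC the difference was 0.85 (adjusted p 0.398).

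Among 35 groups of 8 to 10 libraries tested for a single library far from the rest, where chance flags about 1 in 20, 2 were flagged. The vehicle liver library with the most Mrpl51 held 102 CPM, while the group's median was 33.4. The combination liver library with the most Mrpl54 held 149 CPM, while the group's median was 83.1.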

How the results depend on the processing

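Of 248 counts of called members under alternatives, 215 were within 1.5 times the main count and 33 were not, all with 0 to 3 members called. Of 115 refits of the called members, none changed direction, and 49 lost the call. In hypothalamus, PFOS against vehicle called 1 member in place of 0 with DESeq2, with all libraries kept, without unusual barcodes and with barcode GC as a covariate, Mrpl51 each time. The combination against vehicle called 0 in place of 3 with the depth covariate, without the filter on low counts, without unusual barcodes and with the barcode covariate. Against vancomycin it called 2, 1, 1 and 2 in place of 6 under these, and 3 at 500000 counts. In pituitary, PFOS and the combination against vehicle called 0 in place of 1 at 500000 counts, without unusual barcodes and with the barcode covariate, and the combination against vancomycin 1 in place of 0 under the latter pair. In thyroid, PFOS called 1 in place of 0 with DESeq2 (Mrps33) and at 500000 counts (Mrpl51). The combination against vehicle called 3 with DESeq2 in place of 1, and 0 with the depth covariate, at 500000 counts and without unusual barcodes. Against vancomycin it called 1 in place of 0 with DESeq2 (Mrps23) and at 500000 counts (Mrpl51). The thyroid fits at 500000 counts held only 4 PFOS and 2 combination libraries. The difference in PFOS effect between hypothalamus and pituitary called 0 in place of 1 at 500000 counts and without unusual barcodes, and that between hypothalamus and liver 1 in place of 0 with DESeq2 and all libraries kept. The causes were not tested. Fits without the 2 libraries that stand apart kept every count.

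With the library number as a replicate block, the tissue pairs called 45 (hypothalamus and pituitary), 51, 49, 36, 44 and 40 members in place of 45, 49, 47, 34, 44 and 40, and the PFOS difference for Mrpl51 was 1.63 (adjusted p 0.0412). The labels do not say that a number is 1 animal. In hypothalamus and thyroid, and in pituitary and liver, the same number also means the same barcode, so animal and barcode cannot be told apart there. The block moved no count by over 1.5 times. Within a tissue, treatments share no numbers, so no paired fit could be made there. In liver, with 8 to 10 libraries a group, 32 to 47 of 63 members had intervals within 1.5-fold.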
